A study of Drosophila melanogaster with 3 samples.

Results

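The deposited table of larval brain RNA places 171 named rows, of 13460 named rows in all, on 7 of the sequences that the dm3 genome assembly kept apart from the main chromosome arms. They were chosen by position alone: a row belongs here when it names a gene and its locus lies on 2LHet, 3LHet, 3RHet, XHet or YHet, which hold heterochromatin assigned to a chromosome, or on U or Uextra, which hold sequence with no chromosome assigned. Rows on 2RHet, a further heterochromatin sequence of that assembly, are not among the 171. No measured value entered the choice. RNA came from brains of Drosophila melanogaster larvae in the third instar, kept at 25 °C. The library labelled double mutant came from dBRWD3PX2/PX2, yemGS21861/GS21861 animals, homozygous for the dBRWD3 allele PX2 and for the yem insertion GS21861. The library labelled single mutant came from dBRWD3PX2/PX2 animals, and the library labelled control from dBRWD3PX2/+ animals, which still carry 1 mutant copy of dBRWD3. There is 1 library for each genotype. No replicate error was available, no test was run, and every statement compares these 3 libraries and not the genotypes. The control values may be averages, since many carry more digits than any mutant value. The sex of the larvae and the number of brains behind each library are not stated in the labels used here.

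Heterochromatin is the compact, repeat-rich part of the genome around the centromeres and over nearly all of the Y chromosome. It is marked by methylated histone H3 lysine 9 and by the protein HP1, and it silences many genes that are moved into it. The genes that normally live there are an exception, since many of them are transcribed in this setting and include essential housekeeping genes. On the Y chromosome most of the known protein genes are transcribed in the male germ line and serve sperm development. BRWD3 is a WD-repeat and bromodomain protein, and yemanuclein, the yem product, is a partner of the histone chaperone HIRA.

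Values are RPKM as the authors deposited them, a read level corrected for how long the transcript is and how many reads the library has. The rows of the targeted genes did not separate the labels: BRWD3 had 47.8 RPKM in the double mutant, 43.2 RPKM in the single mutant and 29.1 RPKM in the control library, and yem, listed as yemalpha, had 15.6, 8.04 and 11.9 RPKM in the same libraries. All 19 rows of the brain marker list reached 1 RPKM in at least 1 library. They summed to 311 RPKM in the double mutant, 244 RPKM in the single mutant and 232 RPKM in the control library, and 3 of them (brp, repo and pros) were at least 2-fold higher in the double mutant than the single mutant, while the neuroblast genes wor and ase had log2 ratios of -0.64 and -0.45. RNA of other tissues moved between the libraries too: 5 fat body markers summed to 1114 RPKM in the double mutant, 181 RPKM in the single mutant and 518 RPKM in the control library, 5 gut markers to 35.6, 1.13 and 88.6 RPKM, and 4 salivary gland markers to 87.5, 635 and 159 RPKM. Blood cell markers, 5 rows, summed to 489.7 RPKM in the double mutant, 157 RPKM in the single mutant and 169.8 RPKM in the control library, with proPO-A1 and Hml making up most of the sum. The blood cell genes crq and nimC1 had lower values in the double mutant than the single mutant, with 16.0 and 4.15 RPKM against 24.5 and 7.02 RPKM. The 4 muscle markers summed to 17.995, 18.5 and 29.0 RPKM. The part of these markers in the results below was not tested, and with whole brains fewer cells of a type and less RNA per cell cannot be told apart. If the lowest common step of the values is 1 read, 1 RPKM over 1 kb rests on about 29.3 reads in the double mutant, 22.0 reads in the single mutant and 29.1 reads in the control library.

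All 115 named rows on the unplaced sequences were listed at 0 RPKM in all 3 libraries. These were the 41 rows on U and the 74 rows on Uextra. Among named rows on all other sequences of the table, outside those described here, 385 of 13289 (2.9%) were listed at 0 in all libraries. U and Uextra also held 0 rows without a gene name, whereas 2LHet, 3LHet and 3RHet held 5, 18 and 36 of them. Of the 74 Uextra rows, 29 carried a replication-dependent histone gene and another 30 carried only members of a family of short noncoding RNAs. Proliferating brain cells need these histones, and 1 of these genes had large values elsewhere in the table. His4:CG31611, a histone H4 gene with 5 rows on Uextra, had 2774 RPKM in the double mutant, 3143 RPKM in the single mutant and 3561 RPKM in the control library at its row on 2L (21424591 to 21425167). CG32640, with 1 row on Uextra, had 53.8, 94.4 and 46.2 RPKM at its row on X (13055746 to 13083197). The joined row CG33491,CG33498 had 11.1, 10.5 and 8.09 RPKM at its highest row on X. Of the 87 distinct names on U and Uextra, 19 had another row with the same name elsewhere, and 13 of those names had a value above 0 there. On 2L all 16 rows of the histone block between 21458851 and 21541127 were likewise listed at 0 in all libraries. No label says whether reads could be assigned to U and Uextra, so a 0 there says only that the row was listed at 0.

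**Figure D1:**
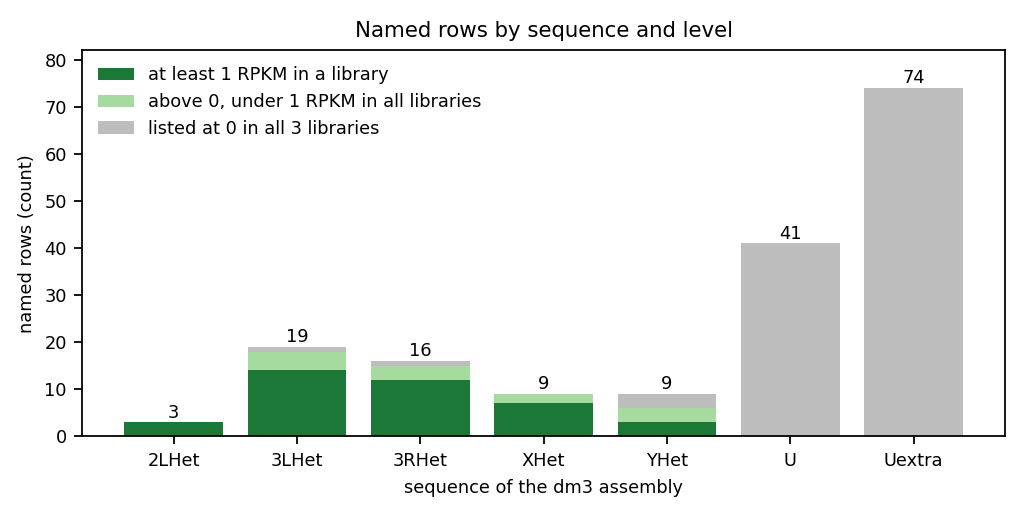
Number of named rows on each sequence (vertical axis, count), split by level: at least 1 RPKM in at least 1 library, above 0 but under 1 RPKM in all libraries, and listed at 0 in all 3 libraries. The 41 rows on U and the 74 rows on Uextra are all at 0, while 39 of the other 56 rows reach 1 RPKM.

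Outside the unplaced sequences, 39 of 56 rows reached 1 RPKM in at least 1 library, and these 39 are the measured genes of the ratios below. They are rows and not all separate genes: 3 carry the name CG41503, and 4 are pieces of the myosin gene Myo81F. The counts below are thus counts of rows. Another 12 rows lay above 0 but under 1 RPKM in all libraries, and 5 were listed at 0 in all. By sequence, 3 of 3 rows were measured on 2LHet, 14 of 19 on 3LHet, 12 of 16 on 3RHet, 7 of 9 on XHet and 3 of 9 on YHet. The count of rows at 1 RPKM or more was 39 in the double mutant, 37 in the single mutant and 36 in the control library. The rows missing were CG41503 rows and Myo81F pieces only. In the single mutant library they were a CG41503 row (0.655 RPKM) and CG41281 (0.953 RPKM). In the control library they were CG41503 rows (0.323 and 0 RPKM) and CG42624 (0.827 RPKM). The same counts over all named rows were not computed.

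The largest ratios between the libraries among these genes were on YHet, where the 3 rows named CG41503 were high in the library labelled double mutant and low in the control library. CG41503 is an older name of FDY (flagrante delicto Y), a Y-linked gene that arose as a copy of the chromosome 3 gene vig2. All 3 rows carry the same locus, YHet 297805 to 344329. The first row in table order had 57.5 RPKM in the double mutant, 29.2 RPKM in the single mutant and 0.323 RPKM in the control library. The second row had 16.1 RPKM in the double mutant, 2.66 RPKM in the single mutant and 1.40 RPKM in the control library. The third had 49.2 RPKM in the double mutant and 0.655 RPKM in the single mutant, and was listed at 0 in the control library. In each row the double mutant library was highest and the control library lowest, but the single mutant library stood near the double mutant in the first row only.

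Ratios are given as log2 of (RPKM + 1), so a value of 1 is a 2-fold difference on that scale and small levels give small ratios. The log2 ratios of the first CG41503 row were 0.95 (double to single mutant), 4.51 (single mutant to control) and 5.47 (double mutant to control). For the second row they were 2.22, 0.61 and 2.83, and for the third 4.92, 0.73 and 5.65. The control and single mutant levels of the third row and the control level of the first lie below 1 RPKM, where a few reads decide the value.

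vig2 (3R, 20949094 to 20951341) encodes a protein of heterochromatin and had 593 RPKM in the double mutant, 773 RPKM in the single mutant and 591 RPKM in the control library. The first CG41503 row thus stood at 9.71% of vig2 in the double mutant, 3.78% in the single mutant and 0.0547% in the control library. FDY and vig2 are near-identical in sequence and no label states how the alignment divided shared reads, so the CG41503 values are uncertain. Mocs2, the neighbour of vig2 on 3R, had 10.6, 10.05 and 10.8 RPKM in the double mutant, single mutant and control libraries, and Clbn, the next gene, had 12.3, 15.6 and 12.4 RPKM. Neither vig2 nor these neighbours had a ratio of 2-fold or more in any comparison.

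**Figure D2:**
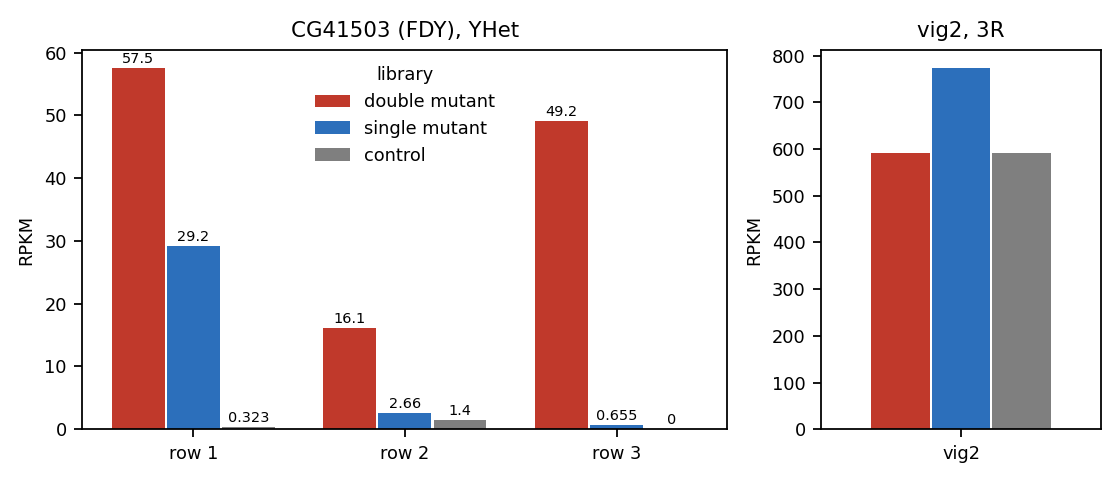
RPKM of the 3 CG41503 (FDY) rows on YHet (left, values printed over the bars) and of vig2 on 3R (right, on its own axis), 1 bar for each library and no replicates. The CG41503 rows reach 16.1 to 57.5 RPKM in the double mutant library and at most 1.40 RPKM in the control library, while vig2 stays between 591 and 773 RPKM.

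The other genes of YHet, most of them known from the male germ line, were at or near 0 in the 3 libraries. kl-5, kl-3 and kl-2 encode dynein heavy chains of the sperm tail. kl-5 was listed at 0 in all libraries, kl-3 had 0.00231 RPKM in the double mutant and 0.00296 RPKM in the single mutant and was listed at 0 in the control library, and kl-2 had 0.00286 RPKM in the double mutant, 0 in the single mutant and 0.000879 RPKM in the control library. Ppr-Y had 0 RPKM in the double mutant, 0.0196 RPKM in the single mutant and 0.00877 RPKM in the control library. The fertility gene Ory and the phosphatase gene Pp1-Y2 were listed at 0 in all. The highest value among these 6 rows was 0.0196 RPKM, too low to judge whether any of them moved with CG41503.

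Further Y-linked genes stood on other sequences of the table. ARY, on 3LHet, and the phosphatase gene Pp1-Y1, on U, were listed at 0 in all libraries. The U rows CG40551 and CG41020 belong to WDY, CG41367, CG42619 and CG40930 to PRY, CG42620 to CCY, CG40992 and CG40936 to kl-3, and CG41497 to kl-5, and all of them were at 0. Of the 20 rows of the Y-linked list, 14 were listed at 0 in all libraries, and the 3 that reached 1 RPKM were the CG41503 rows. Apart from ARY, kl-5, Ory and Pp1-Y2, the rows at 0 lay on U, where all 41 named rows were listed at 0 whatever the gene. Those rows thus say nothing about Y-linked genes. Of named rows outside the sequences described here, 2.9% were listed at 0 in all libraries.

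RNA that is made mainly in males was present in each library. The noncoding RNA roX2, which coats the male X chromosome in dosage compensation, had 312 RPKM in the double mutant, 264 RPKM in the single mutant and 367 RPKM in the control library. Its partner roX1 had 66.7, 63.7 and 46.2 RPKM. As deposited, the highest and the lowest of these values differed by less than 1.5-fold for each RNA. roX1 was highest in the double mutant and lowest in the control library, the order of the CG41503 rows. roX2 was highest in the control and lowest in the single mutant library. The sex of the larvae is not stated, and its part in the CG41503 values was not tested.

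Most rows of the testis and germ line list stayed under 1 RPKM. Of the 33 rows of that list, 10 reached 1 RPKM, 3 were listed at 0 in all libraries, and 0 lay 2-fold apart between the double and single mutant or between the single mutant and control libraries. The list summed to 133 RPKM in the double mutant, 123 RPKM in the single mutant and 137 RPKM in the control library, and most of this came from Pgd and the joined row bgcn,wibg, which other cells use too. The sperm gene Mst87F had 0.993, 0.865 and 0.684 RPKM, the germ cell gene vas had 0.229, 0.0283 and 0.0625 RPKM, and Mst84Da was listed at 0 in all libraries. Other rows were higher: the joined row Task7,betaTub85D had 10.5, 6.07 and 8.58 RPKM. bam had 2.11, 2.44 and 1.37 RPKM, and twe had 2.78, 2.20 and 2.21 RPKM. Whether germ line RNA had a part in the CG41503 values was not tested. The 1 row with a ratio of 2-fold or more was zfh1, a transcription factor gene also used in neurons and blood cells, with 4.37 RPKM in the double mutant and 1.47 RPKM in the control library.

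The measured genes spanned a wide range of levels. Over the 39 rows, the YHet rows included, the median level was 15.2 RPKM in the double mutant, 20.1 RPKM in the single mutant and 16.1 RPKM in the control library, against 14.0, 13.1 and 12.5 RPKM over all 9728 named rows that reached 1 RPKM. RpL15, a ribosomal protein gene on 3LHet (2397791 to 2398990), was the highest, with 1958 RPKM in the double mutant, 2714 RPKM in the single mutant and 2248 RPKM in the control library. CG41128, on 3RHet (1806526 to 1808475), followed with 325, 536 and 354 RPKM. For both genes the single mutant library was highest, and the log2 ratios of RpL15 were -0.47 (double to single mutant) and 0.27 (single mutant to control).

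Several members make parts of mitochondria. Ucrh, on 3LHet, named for the hinge protein of respiratory complex III, had 212 RPKM in the double mutant, 345 RPKM in the single mutant and 297 RPKM in the control library. CG40002, now ND-AGGG, a subunit of complex I, had 14.3, 22.3 and 18.1 RPKM. The protein import gene CG40451, now Tim17b, had 71.5, 92.3 and 73.0 RPKM, and CG40042, now Tim23 and part of the same import channel, had 57.5, 51.3 and 56.1 RPKM. The double to single mutant log2 ratios were -0.70 for Ucrh, -0.61 for CG40002 and -0.36 for CG40451, and 0.16 for CG40042, so CG40042 did not share the direction of the other 3.

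Genes of chromatin and transcription on these sequences lay close together in the 3 libraries. vtd encodes the Rad21 subunit of cohesin, the ring that holds sister chromatids, and had 15.8 RPKM in the double mutant, 20.9 RPKM in the single mutant and 16.1 RPKM in the control library. Parp, for the poly(ADP-ribose) polymerase that loosens chromatin, had 14.6, 22.9 and 17.6 RPKM. CG40351, now Set1, a histone H3 lysine 4 methyltransferase gene, had 4.86, 4.56 and 4.90 RPKM, and its overlapping neighbour MED21, a Mediator subunit gene at the same locus, had 13.6, 20.1 and 12.7 RPKM. The homeobox gene scro, known from the optic lobe, had 52.9, 67.8 and 58.3 RPKM. For all of these but CG40351 the single mutant library was highest, and each lay within 2-fold in every comparison.

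A pair of genes of RNA processing went the other way or hardly differed. su(f), on XHet, encodes a cleavage factor for messenger RNA ends and had 26.3 RPKM in the double mutant, 23.2 RPKM in the single mutant and 33.0 RPKM in the control library. Dbp80, a DEAD-box RNA helicase gene on 3LHet, had 54.5, 56.7 and 62.7 RPKM. Both were highest in the control library, with log2 ratios of the double mutant to control of -0.31 and -0.20.

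Genes of hormones, nerve cells and metabolism made up the rest of the named levels. spok (spookier), on 3RHet (2127042 to 2158789), encodes an enzyme of ecdysone synthesis that is known from the prothoracic gland next to the brain, and had 24.2 RPKM in the double mutant, 36.8 RPKM in the single mutant and 25.7 RPKM in the control library. Gpb5, on 2LHet, encodes a subunit of a glycoprotein hormone and had 29.8, 26.9 and 42.1 RPKM, while the gene of its partner, Gpa2, stood on U and was listed at 0. CG2893, now zyd, an ion exchanger gene of glia, had 31.4, 24.4 and 41.6 RPKM, and CG17168, near it on XHet, had 28.8, 26.8 and 32.5 RPKM. Gfat1, of hexosamine synthesis, had 32.3, 45.8 and 33.8 RPKM. Alg-2, for a calcium-binding protein, had 14.9, 15.8 and 11.5 RPKM, and CG12567, on 2LHet, had 14.8, 18.1 and 14.9 RPKM. Gpb5, CG2893 and CG17168 were lowest in the single mutant library, whereas spok, Gfat1, Alg-2 and CG12567 were highest there.

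**Figure D3:**
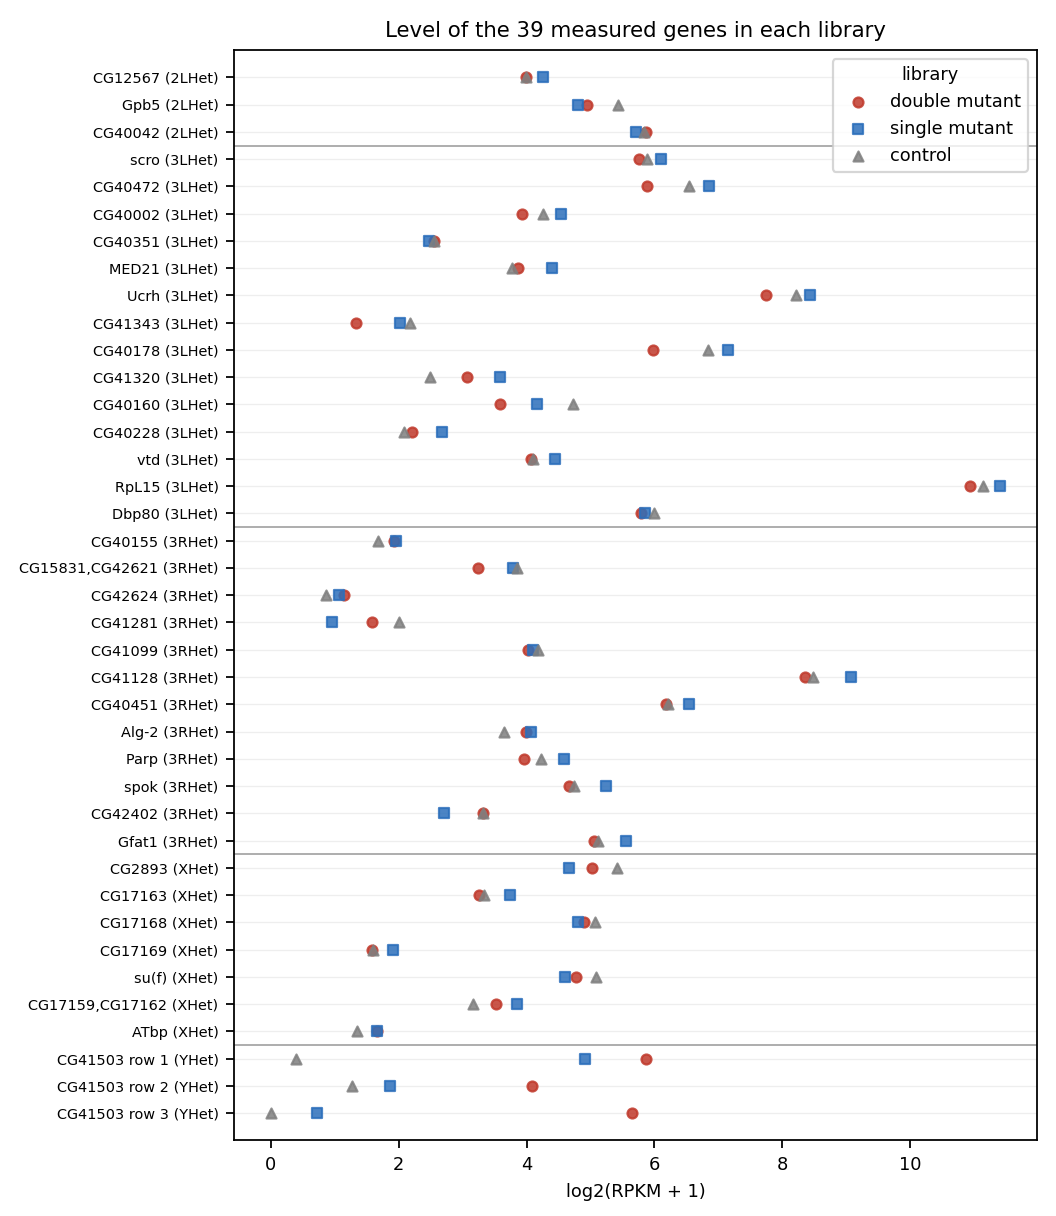
Level of each of the 39 measured genes as log2(RPKM + 1) (horizontal axis), 1 point for each library, ordered by sequence and position. The 3 points of most genes lie close together, with the single mutant point often furthest right, and the CG41503 rows at the bottom are spread widely.

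Few genes on these sequences differed by 2-fold or more. For the double to the single mutant, 2 of 39 were at least 2-fold higher, beside 4.30% of all named rows, and 1 was at least 2-fold lower, beside 1.49%. Between the single mutant and control libraries 2 of 39 were higher and 1 lower, beside 2.70% and 3.62% of all rows. Between the double mutant and control libraries 3 of 39 were higher and 1 lower, beside 3.09% and 1.63%. With so few rows these shares do not stand apart from the background of the table. All the rows at least 2-fold higher were CG41503 rows, apart from CG41320 in the single mutant.

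The 4 other genes past 2-fold lay on 3LHet and 3RHet, and each passed in 1 comparison. CG40178, now l(3)80Fg (3LHet, 1181139 to 1396811), had 62.3 RPKM in the double mutant, 142 RPKM in the single mutant and 113 RPKM in the control library, a log2 ratio of -1.17 for the double to the single mutant. CG40160 (3LHet, 1562356 to 1577323) had 11.0, 17.0 and 25.5 RPKM, with a log2 ratio of -1.15 for the double mutant to control. CG41320, a pseudogene in the current annotation (3LHet, 1532479 to 1545940), had 7.41, 11.0 and 4.63 RPKM, with a log2 ratio of 1.09 for the single mutant to control. CG41281, a piece of the myosin gene Myo81F (3RHet, 1016922 to 1017221), had 2.00 RPKM in the double mutant, 0.953 RPKM in the single mutant and 3.04 RPKM in the control library, a log2 ratio of -1.05 for the single mutant to control. Each of the 4 calls ended under another setting: with libraries rescaled to the same sum without short RNA genes the ratio was -0.86 for CG40178 and -0.86 for CG40160, and with 5 RPKM added in place of 1 it was 0.73 for CG41320 and -0.43 for CG41281. CG40472 (3LHet, 410461 to 411040) lay just inside 2-fold, with 58.1, 115 and 92.4 RPKM and a double to single mutant log2 ratio of -0.97.

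Below 2-fold, and on the values as deposited, many of the 39 genes were somewhat higher in the single mutant library than in both others. The median log2 ratio was 0.29 for the single mutant to control, beside 0.04 over all named rows, and -0.34 for the double to the single mutant, beside 0.04. For the double mutant to control it was -0.071, beside 0.07. With libraries rescaled to the same sum without short RNA genes, the median for the double to the single mutant was -0.048, beside 0.32 over all rows, and that for the double mutant to control turned to 0.21, beside 0.35. The median for the single mutant to control was 0.28 there, beside 0.04. Of the 39 genes 26 were higher by any amount in the single mutant than in control, beside 54.1% of all rows, and 13 were lower, beside 45.8%. For the double to the single mutant 26 of 39 were lower and 13 higher, beside 46.0% and 53.8% of all rows. After that rescaling 21 were lower and 18 higher, beside 1846 and 7869 of all 9728 rows. For the double mutant to control 12 of 39 were higher and 27 lower, beside 58.0% and 41.9%. After the rescaling, which was chosen after seeing the data, this turned to 28 higher and 11 lower, beside 8307 and 1417 of all 9728 rows. With values divided by each library's median, a planned setting, it did not turn. Then 10 were higher and 29 lower, beside 4099 and 5625 of all rows. For the double to the single mutant 11 were then higher and 28 lower, beside 4296 and 5419. The single mutant library was the highest of the 3 for 21 of 39 genes (53.8%), against 35.3% of all named rows. After the rescaling without short RNA genes it was highest for 18 of 39 (46.2%), against 16.2%. All of these comparisons share libraries, so a single high or low value in the single mutant library enters both ratios.

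The pattern was not even across the sequences. On 3LHet, 13 of 14 measured genes had less RNA in the double mutant library than in that of the single mutant, with a median log2 ratio of -0.52. Over all named rows 46.0% were lower, with a median of 0.04. After the rescaling 12 of 14 were lower on 3LHet, with a median of -0.23. Over all named rows 1846 of 9728 were then lower, with a median of 0.32. For 10 of the 14 on 3LHet the single mutant library was highest under both scalings. On 3RHet, 9 of 12 were lower, with a median of -0.22. After the rescaling 6 of 12 were lower and the median was 0.076, still below that of all named rows. On XHet, 3 of 7 were lower under both, with medians of 0.00 and 0.22, and on 2LHet 1 of 3 was lower, and 0 of 3 after the rescaling. Chromosome 4, a small chromosome of largely heterochromatic character that the table lists apart, was also often highest in the single mutant: 52 of its 80 measured rows (65.0%) were highest in the single mutant library, with medians of 0.31 for the single mutant to control and -0.21 for the double to the single mutant. After the rescaling the single mutant was highest for 31 of the 80 (38.8%), and the median for the double to the single mutant was 0.080, beside 0.32 over all named rows. Over all named rows the single mutant was highest for 35.3% as deposited and for 16.2% after the rescaling. Whether these shares differ from the rest of the table by more than replicate libraries would is unknown.

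**Figure D4:**
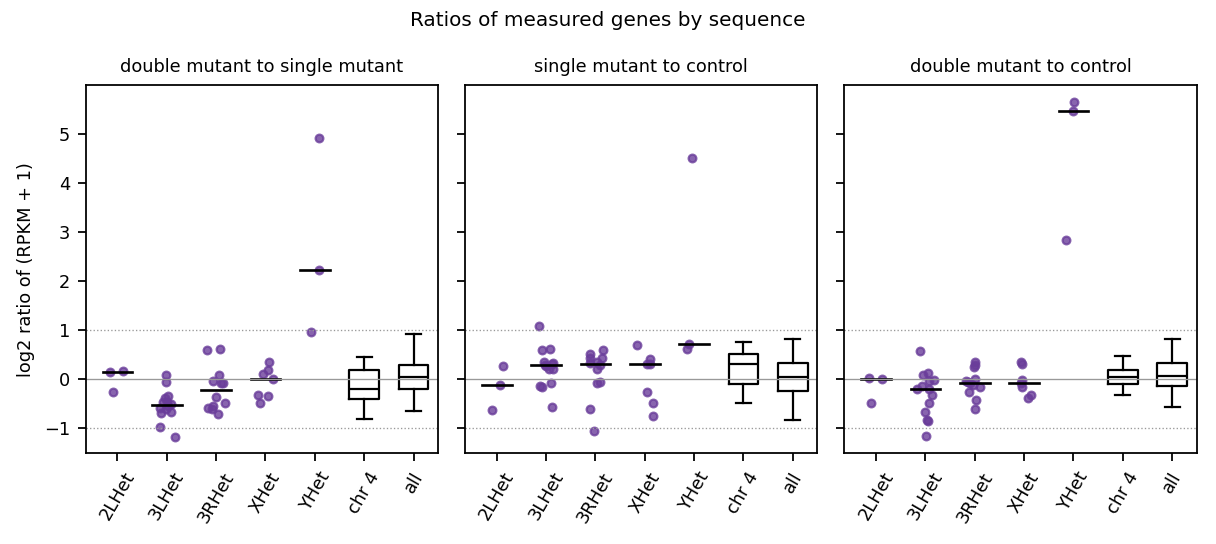
Log2 ratio of (RPKM + 1) for each measured gene in each comparison (points, by sequence, black line at the median), beside boxes for chromosome 4 and for all 9728 named rows (median, quartiles, whiskers at the 5th and 95th percentile). Dotted lines mark 2-fold; most 3LHet points lie below 0 for the double to the single mutant, on values as deposited, and the YHet points lie above most others.

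Transcript length also moved with these ratios. A length in the current annotation was known for 32 of the 39 rows, and 11 of these transcripts were shorter than 1 kb. For the double to the single mutant the median log2 ratio of these 11 was -0.47, beside -0.11 over all rows under 1 kb, and in the class of 1 to 4 kb it was -0.08 for 19 rows, beside 0.02. For the single mutant to control the 2 medians were 0.31 beside 0.12, and 0.32 beside 0.03. In these classes the members thus lay above all rows for the single mutant to control, and for the double to the single mutant the gap was smaller from 1 to 4 kb, the class of the 3 CG41503 rows. The 2 rows of 4 kb or more went the other way, with medians of 0.34 for the double to the single mutant, beside 0.24, and -0.34 for the single mutant to control, beside 0.00.

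**Figure D5:**
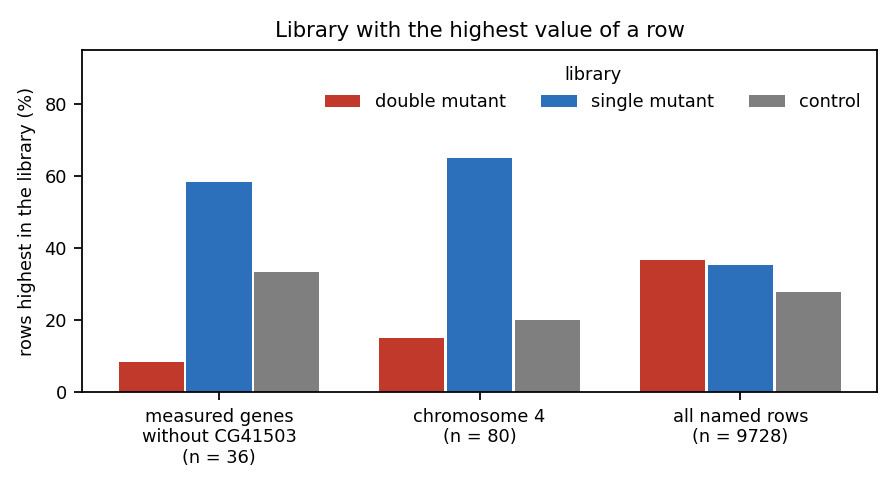
Share of rows (vertical axis, percent) for which each library had the highest of the 3 values, for the 36 measured genes without CG41503, for 80 rows of chromosome 4 and for all 9728 named rows. The single mutant library is highest for 58.3% of the 36 genes and for 65.0% of chromosome 4 rows, against 35.3% of all named rows, on values as deposited. Rescaled without short RNA genes, the share for chromosome 4 is 38.8%, below that of the double mutant (53.8%), beside 16.2% and 72.9% of all named rows.

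Some genes were split over several rows because the older assembly held them in pieces. Myo81F, an unconventional myosin gene, is spread over 9 rows, 4 on 3RHet and 5 on U. The joined row CG15831,CG42621 had 8.44 RPKM in the double mutant, 12.8 RPKM in the single mutant and 13.5 RPKM in the control library, CG40155 had 2.80, 2.89 and 2.20 RPKM, and CG42624 had 1.22, 1.11 and 0.827 RPKM. Together with CG41281, the 4 pieces on 3RHet did not share 1 order of the libraries.

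Among other genes split over rows, lovit, a vesicular transporter gene of photoreceptors, had 1.53 RPKM in the double mutant, 3.05 RPKM in the single mutant and 3.53 RPKM in the control library at CG41343, and 0.203, 0.0766 and 0.156 RPKM at CG40467, with another row on U at 0. Pzl, a gene related to the Piezo mechanosensory channels, had 5 rows with at most 0.0164 RPKM. Both rows of CG42598 lay under 1 RPKM, at 0.294 and 0.248 RPKM in the double mutant, 0.563 and 0.633 RPKM in the single mutant, and 0.209 and 0.241 RPKM in the control library.

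Genes from a list of well-studied heterochromatin genes that are placed on the main arms or other sequences showed levels of the same kind. Of 20 such measured rows only nvd passed 2-fold, upward for the double to the single mutant and downward for the single mutant to control, and the medians of those comparisons were -0.24 and 0.17. After the rescaling the first of these was 0.062, beside 0.32 over all named rows. RpL5, a ribosomal protein gene on 2L, had 6289 RPKM in the double mutant, 8277 RPKM in the single mutant and 7687 RPKM in the control library. lt (light), the classic heterochromatic gene of chromosome 2, had 15.6, 17.3 and 15.9 RPKM, and Snap25, for a protein of synaptic vesicle fusion, had 116, 104 and 105 RPKM. nvd, which like spok serves ecdysone synthesis, had 5.53, 1.95 and 5.83 RPKM and was thus lowest where spok was highest.

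Of these 20 rows, 13 (65.0%) were highest in the single mutant library, against 35.3% of all named rows, and after the rescaling 8 (40.0%) were, against 16.2%. Nurf-38 (2R, 20446489 to 20448610) and CG8436 (3R, 5084690 to 5086150), both among the 13, lie within the main arms. So does CG14200,Pfrx (X, 19389537 to 19412092), and the share may therefore not describe heterochromatin alone. rl, the MAP kinase gene of 2RHet, had 37.9 RPKM in the double mutant, 49.3 RPKM in the single mutant and 34.1 RPKM in the control library. Nipped-B, which loads cohesin onto chromosomes, had 12.6, 15.3 and 11.6 RPKM, and Nipped-A, a subunit of histone acetyltransferase complexes, had 12.2, 16.2 and 11.03 RPKM. The kinase gene Haspin had 13.6, 19.95 and 13.6 RPKM, and Nurf-38, of the NURF chromatin remodeller, had 526, 649 and 553 RPKM. Other rows were not highest there: eIF-4B, a translation factor gene, had 56.2, 58.8 and 62.0 RPKM, CG17665 had 16.1, 15.8 and 15.2 RPKM, CG42596 had 12.1, 12.8 and 13.4 RPKM, the joined row CG32458,CG41452,nrm had 42.1, 39.97 and 42.6 RPKM, and CG14200,Pfrx had 26.9, 23.4 and 24.0 RPKM. These rows and CG40005,cta, Cht3, Gprk1, CG40263, CG8436 and DIP1 lay within 2-fold in each comparison, and JYalpha stayed under 1 RPKM in all libraries.

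Genes of a list of heterochromatin proteins differed little, as did most named rows. All 29 rows of that list lay within 2-fold in each comparison, with medians of 0.06 (double to single mutant), 0.07 (single mutant to control) and 0.00 (double mutant to control). Of all 9728 named rows 9165, 9113 and 9268 lay within 2-fold in the same comparisons, with medians of 0.04, 0.04 and 0.07. Su(var)3-9, for a histone H3 lysine 9 methyltransferase, had 170.2 RPKM in the double mutant, 159 RPKM in the single mutant and 155 RPKM in the control library, and D1, for a satellite-binding protein, had 503, 522 and 347 RPKM. JIL-1, a histone kinase gene, had the largest ratio, with 11.2 RPKM in the double mutant and 6.33 RPKM in the control library (log2 ratio 0.73).

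Of the piRNA pathway, which silences transposons in germ cells, 15 of 23 rows reached 1 RPKM. Of these, 1 was at least 2-fold higher for the double mutant to control, beside 3.09% of all named rows, and none passed in another comparison. This was krimp, with 2.95 RPKM in the double mutant, 1.17 RPKM in the single mutant and 0.899 RPKM in the control library. Its log2 ratios were 1.06 for the double mutant to control and 0.87 for the double to the single mutant. piwi had 0.333, 0.984 and 0.540 RPKM, and AGO3, itself a heterochromatic gene, had 0.245, 0.431 and 0.135 RPKM. The 7 rows of the dosage compensation list, which include roX1 and roX2, all lay within 2-fold in each comparison, as did most named rows.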

How the data were processed

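The deposited table gives RPKM values, 1 column for each library, made by the authors. Per the submitters' processing notes, FastQC, Trimmomatic, TopHat2 2.0.9, Cufflinks 2.0.2 and genome build dm3 were used. No source used here gives the settings, the strand handling or the treatment of reads that match several places. Per the labels' protocols, RNA was freed of ribosomal RNA. In the control column 27 of 47 values above 0 on these sequences have more than 6 digits, and 0 do in either mutant column, so the control values may be averages.

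All positions are those of the table. Of its 15229 rows, 1769 name no gene and 1 named row lacks a value. Each named row was kept as a locus of its own. Ratios were formed after adding 1 RPKM to both values and put on the log2 scale, for the 9728 named rows with at least 1 RPKM in at least 1 library, and a row was counted at 2-fold or more. The added RPKM makes folds of low genes smaller. All 152 distinct gene names were matched to RefSeq names (Release 6), and transcript lengths come from the BDGP6 annotation, with no coordinates of either used. The script was tested on simulated ratios.

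The members follow from position alone, but this rule and the lists were set with earlier results of these data known. Named were genes past 2-fold, the 3 highest of each sequence, rows of the Y-linked and heterochromatin lists, and leading genes of other lists. Genes named for other reasons were chosen after their values were seen. Python 3.11.15, pandas 2.3.3 and numpy 2.4.6 were used.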

Additional observations from a re-analysis of the deposited data

Results flagged for a closer look

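The sequences also held 59 rows without a gene name, which no comparison above used, and all of them reached 1 RPKM in at least 1 library. Of these, 10 were at least 2-fold higher in the double mutant than in the control library and 15 at least 2-fold lower, and the difference was not tested. Over the named rows of the table these shares were 3.09% and 1.63%. The shares among unnamed rows of other sequences were not computed, so these counts cannot be called particular to the sequences described here. The highest ratio belonged to a row on 3RHet (165355 to 165450) with 150.0 RPKM in the double mutant and 17.5 RPKM in the single mutant, listed at 0 in the control library. The lowest belonged to a row on 3RHet (2515050 to 2515072) listed at 0 in both mutant libraries, with 55806 RPKM in the control library. Both loci are very short, and RPKM is unstable there.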

How the results depend on the processing

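No paired analysis was possible because each genotype has 1 library, and no replicate could be left out. In counts at 2-fold, the order is higher then lower, and the medians are log2 ratios. For the double to the single mutant (2 and 1, median -0.34) the medians were -0.37 and -0.26 with pseudocounts of 0.1 and 5 RPKM, 0.00 with no filter, where 120 of 171 rows are at 0, -0.37 with a filter at 5 RPKM, -0.35 with 1 row for each name (0 higher), -0.32 without joined rows and -0.35 without loci under 500 bp. With values divided by each library's median it was -0.43 (2 lower). At 1.5-fold 5 were higher and 8 lower. For the single mutant to control (2 and 1, median 0.29) the medians under the same settings were 0.32, 0.21, 0.00, 0.32, 0.28, unchanged without joined rows, 0.30 without short loci and 0.24 with median scaling. With a pseudocount of 5 RPKM 1 was higher and 0 lower, and with the filter at 5 RPKM or without short loci 0 were lower. At 1.5-fold 8 were higher and 4 lower. For the double mutant to control (3 and 1, median -0.071) the medians were -0.079 and -0.057 with the other pseudocounts, 0.00 with no filter, -0.10 with the filter at 5 RPKM, -0.080 with 1 row for each name (1 higher) and -0.22 with median scaling (2 lower). With pseudocounts of 0.1 and 5 RPKM 2 and 0 were lower, and at 1.5-fold 5 were. Leaving out noncoding names removed none of the measured genes. That setting went by the deposited name, so it kept CG41320, a pseudogene in the current annotation.

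Chosen after seeing the data, leaving out the 3 CG41503 rows gave 0, 1 and 0 higher in the 3 comparisons, in the order above, and medians of -0.36, 0.28 and -0.10. Rescaling to the same sum without short RNA genes moved the median of all rows to 0.32, 0.03 and 0.35 and that of these genes to -0.048, 0.28 and 0.21, so the direction for the double mutant to control turned, with 0 lower in both double mutant comparisons. Relative to all rows the medians were then -0.37, 0.25 and -0.14. No ratio past 2-fold changed sign under the 2 pseudocounts or the 2 scalings. With 1 library for each genotype, and few reads behind values under 1 RPKM, small ratios of low genes cannot be judged.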

Other observations

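Stellate genes are repeated X-linked genes that Y-linked repeats silence in the male germ line. The 1 Stellate row on the unplaced sequences, SteXh:CG42398, was listed at 0 in all libraries. The 11 Stellate rows on X ranged from 0.343 to 3.01 RPKM in the double mutant, from 0.275 to 0.976 RPKM in the single mutant and from 0.0653 to 0.281 RPKM in the control library. In 10 of the 11 rows the double mutant was highest and the control lowest. Of the 9728 named rows that reached 1 RPKM, the double mutant was highest for 36.8% and the control lowest for 40.0%. The share with both was not computed. All single mutant and control values of the Stellate rows lay under 1 RPKM, where a few reads decide the value. The Stellate rows are near-identical copies that share reads, so they are not independent, and they were singled out after their values were seen.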
